A study of Mus musculus with 2 samples.

Results

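Antigen presentation was examined in mouse small intestinal organoids through 10 genes, which are 10 of the 31053 genes in the deposited count matrix and are a fixed list of names, set with earlier results of these data known. They were the class I heavy chains H2-K1 (ENSMUSG00000061232) and H2-D1 (ENSMUSG00000073411), the light chain B2m (ENSMUSG00000060802), the peptide transporter subunit Tap1, the immunoproteasome subunit Psmb8 and the class I transactivator Nlrc5. For class II they were the chains H2-Ab1 and H2-Aa, the invariant chain Cd74 and the class II transactivator Ciita. The study compared organoids, which are cultured epithelial buds that contain the cell types of crypt and villus, without and with melatonin. Its labels give 1 control and 1 melatonin-treated sample, each with cells of 3 independent organoid lines mixed on culture day 3, and the strain and age of the mice, the melatonin dose and the length of treatment are not given in the sources used here.

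The 2 samples were deposited with the same content, 3 of 3 files being identical, so that 1 matrix was available. Its barcodes end in suffix 1 or suffix 2, and nothing in the labels or headers ties a suffix to a treatment. No effect of melatonin could therefore be read from these data, and the order of the suffixes is arbitrary. Cells were barcodes with 500 or more genes, 1000 or more unique molecular identifiers (UMIs, which count captured RNA molecules) and no more than 20% of UMIs from mitochondrial genes. This left 2300 cells with 61628537 UMIs (median 29872) in suffix 1 and 1766 cells with 51111519 UMIs (median 28759) in suffix 2. Of the barcode sequences, 29 occurred with both suffixes, and 0 of them were kept under both. Levels are counts per 1000000 UMIs (CPM), from UMIs summed over cells, with exact Poisson intervals. Intervals here are 95% intervals and hold only the error of counting. Each suffix is 1 pool without replicates, so the comparisons carry no test.

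Class I molecules show peptides from inside the cell to CD8 T cells and are made by almost every nucleated cell. The heavy chain pairs with B2m, peptides are cut by the proteasome and carried into the endoplasmic reticulum by Tap1 with its partner Tap2, and Tapbp holds the empty molecule at the transporter. Class II molecules show peptides taken up from outside to CD4 T cells; in the intestine they are known from immune cells and, under interferon gamma, from epithelium. The genes of each class share promoter elements that bind RFX proteins, CREB family members and NF-Y, on which Nlrc5 or Ciita is recruited, and class I promoters also carry elements for NF-kappaB and interferon regulatory factors.

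Promoter sequence was found in the RefSeq table (GRCm38.p6) for 6 of the 10 genes, namely H2-K1, H2-D1, B2m, Tap1, Psmb8 and H2-Aa; H2-Ab1, Nlrc5, Cd74 and Ciita are named only. The 250 bases before the start site are shown for the class I genes with the highest counts and for H2-Aa, a class II gene that was almost uncounted, because they hold the same short motifs. Capitals mark matches on either strand to GGGANNNNCC (kappaB-like), TTTCNNTT (the letters of an interferon response element), TGACG (CREB-like) and CCAAT (NF-Y-like).
H2-K1 (minus strand, chr17:34000348-34000597): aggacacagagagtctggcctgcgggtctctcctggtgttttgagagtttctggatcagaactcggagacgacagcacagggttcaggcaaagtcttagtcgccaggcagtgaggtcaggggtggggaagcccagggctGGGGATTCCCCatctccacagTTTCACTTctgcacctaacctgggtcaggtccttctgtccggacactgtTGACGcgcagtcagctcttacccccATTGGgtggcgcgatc
H2-D1 (plus strand, chr17:35262844-35263093): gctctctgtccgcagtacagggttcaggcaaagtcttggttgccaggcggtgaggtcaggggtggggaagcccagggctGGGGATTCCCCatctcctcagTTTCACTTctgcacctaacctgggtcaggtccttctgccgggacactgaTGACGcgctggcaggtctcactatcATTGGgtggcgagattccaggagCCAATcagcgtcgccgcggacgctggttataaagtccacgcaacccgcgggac
B2m (plus strand, chr2:122147437-122147686): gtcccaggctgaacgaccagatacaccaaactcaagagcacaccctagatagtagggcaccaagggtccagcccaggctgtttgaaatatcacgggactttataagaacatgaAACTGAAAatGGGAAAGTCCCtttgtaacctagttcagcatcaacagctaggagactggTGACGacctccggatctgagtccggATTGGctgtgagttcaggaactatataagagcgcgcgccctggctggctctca
H2-Aa (minus strand, chr17:34287824-34288073): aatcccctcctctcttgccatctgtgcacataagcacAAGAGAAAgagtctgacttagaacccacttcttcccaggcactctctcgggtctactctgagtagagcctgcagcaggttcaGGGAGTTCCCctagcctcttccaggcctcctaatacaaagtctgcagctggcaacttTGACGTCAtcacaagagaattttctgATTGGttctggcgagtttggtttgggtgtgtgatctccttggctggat

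All 4 motifs occurred in H2-K1, H2-D1, B2m and H2-Aa. In windows of this length, GGGANNNNCC occurred in 17.7% of 32536 mouse promoters, TTTCNNTT in 21.3%, TGACG in 17.85% and CCAAT in 33.8%. TGACG and CCAAT together occurred in 6.14%, and all 4 motifs in 65 promoters (0.200%). Tap1 held TGACG and CCAAT, and Psmb8 held 0 of the 4. A match to these letters describes the sequence and does not show a bound site.

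Over all cells, the class I chains had levels above 100 CPM and the class II genes below 1 CPM. H2-K1 stood at 394 CPM (389 to 399) in suffix 1 and 534 CPM (527 to 540) in suffix 2, and had a UMI in 91.9% and 96.1% of cells. H2-D1 stood at 129 CPM (126 to 132) and 185 CPM (181 to 188), in 80.6% and 89.2% of cells. B2m stood at 179 CPM (176 to 183) and 208 CPM (204 to 212), in 83.6% and 89.9% of cells. The 3 cells with most UMIs held at most 2.28% of the UMIs of any of these 3 genes in a suffix, so the levels did not rest on a few cells. At full depth the shares say little by themselves: Chgb, an enteroendocrine gene, had a UMI in 74.8% and 68.6% of cycling stem-high cells (median 36101 and 35023 UMIs).

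The processing genes were lower in counts. Tap1 stood at 4.54 CPM (4.03 to 5.11) in suffix 1 and 6.36 CPM (5.69 to 7.09) in suffix 2. Psmb8 stood at 4.12 CPM (3.63 to 4.66) and 3.60 CPM (3.1 to 4.16), with intervals that overlapped. Nlrc5, which drives class I transcription in lymphocytes, had 0 UMIs in suffix 1, which allows up to 0.049 CPM (the level of 3 UMIs, the limit used for every count of 0), and 1 UMI in suffix 2. Counts come from the 3' end of each transcript, so they do not scale with gene length, but capture can differ between genes and the levels of different genes are set side by side with that limit.

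Class II genes were rarely counted. H2-Ab1 had 57 UMIs in suffix 1 (0.925 CPM, 0.701 to 1.20) and 34 in suffix 2 (0.665 CPM, 0.461 to 0.930). Cd74 had 22 UMIs (0.357 CPM) and 19 (0.372 CPM), and 3 cells held 52.6% of the latter. H2-Aa and Ciita each had 1 UMI in each suffix. Interferon gamma itself (Ifng) had 0 UMIs in each.

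**Figure D1:**
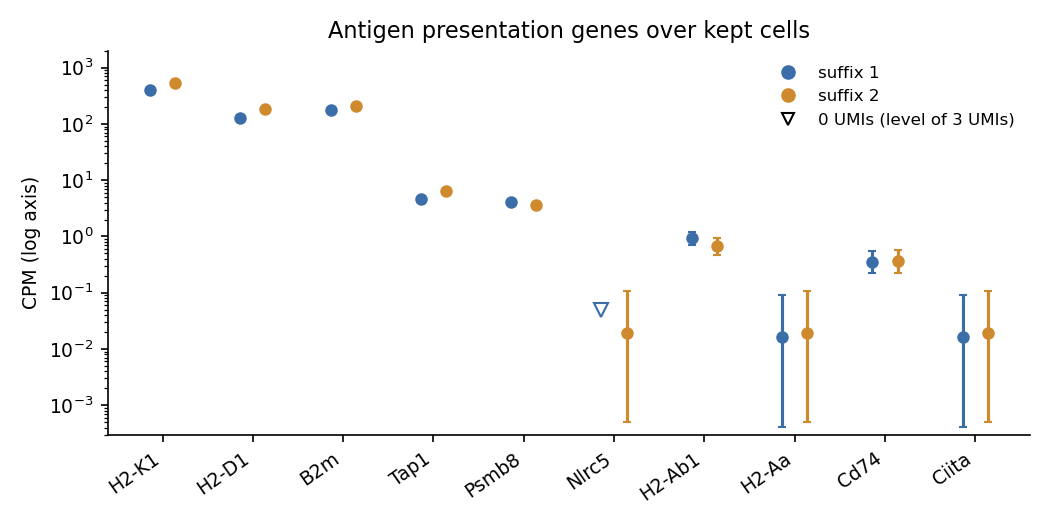
Level of each of the 10 genes over all kept cells, in CPM on a log axis, for barcodes of suffix 1 (blue) and suffix 2 (orange). Points are summed levels, bars are 95% Poisson intervals, and the open triangle is the level of 3 UMIs where 0 were counted; H2-K1, H2-D1 and B2m stand above 100 and the class II genes below 1.

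Between the suffixes, 4 of the 10 genes had intervals that did not overlap (H2-K1, H2-D1, B2m and Tap1), each higher in suffix 2. Such a gap is common at this depth: intervals lay apart with suffix 2 higher for 20.9% of 15474 genes and with suffix 1 higher for 12.2%, and among the 1202 genes that reached 100 CPM these shares were 36.8% and 38.8%. For the 4 genes, log2 ratios of suffix 2 over suffix 1, on CPM plus 1, were 0.44 (0.41 to 0.46) for H2-K1 and 0.52 (0.48 to 0.56) for H2-D1. They were 0.21 (0.17 to 0.25) for B2m and 0.41 (0.25 to 0.72) for Tap1. The intervals are those of the ratio without the added 1, which shifts the Tap1 value within its interval. Of the 7 genes with at least 10 UMIs, 0 differed by 1.5-fold, where 2.46% of 15474 genes were that much higher in suffix 2 and 1.4% in suffix 1. H2-K1 and H2-D1 were past 1.25-fold, as were 9.9% of the 1202 genes at 100 CPM or more. The median over the 7 genes was 0.21, beside 0.03 over all genes tested.

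The rest of the class I pathway was counted in both directions. Of 14 genes in that list, 5 stood higher in suffix 2 with intervals apart (Tapbp, Calr, Pdia3, Hspa5 and Irf1) and 4 higher in suffix 1 (Psmb9, Psmb10, Psme1 and Irf2), and 0 reached 1.5-fold. These counts lie near the shares of all genes given above, 20.9% and 12.2%, or 36.8% and 38.8% from 100 CPM, and say nothing particular about the pathway. Tapbp (tapasin) stood at 18.4 and 27.0 CPM. The immunoproteasome subunits Psmb9 and Psmb10 stood at 7.90 and 5.81 CPM and at 45.8 and 38.4 CPM. Tap2, the partner of Tap1, stood at 4.04 and 4.11 CPM with overlapping intervals. The median of this list was -0.02.

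Cell classes were drawn from summed marker UMIs per 10000 UMIs of a cell, none of the markers being one of the 10 genes. A class is thus a range of marker counts, and its level was set after the marker distributions and the values of the 10 genes had been seen. The enteroendocrine gate (30 per 10000 over Chga, Chgb, Neurod1, Cpe, Scg5, Pcsk1n and Fev) gave 263 cells in suffix 1 and 270 in suffix 2. The enterocyte gate (80, over Alpi, Apoa1, Apoa4, Fabp1, Fabp2, Sis, Anpep and Lct) gave 120 and 174. The joint goblet and Paneth gate (50) gave 54 and 60 cells, and the gate on regeneration-linked revival genes such as Anxa1, Clu and Ly6a (8) gave 24 and 35. Cells past more than 1 gate (56 and 46) and tuft cells (10 and 2) were kept apart. The remaining cells were split by proliferation markers (6) and, among cycling cells, by stem markers such as Lgr5 and Olfm4 (3): 958 and 554 were cycling and stem-high, 522 and 309 cycling and stem-low, and 293 and 316 not cycling.

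The enteroendocrine gate left few cells in doubt, with 52 cells between the gate and its double and 47 between the gate and 0.5 times its level, of 614 past it. For the enterocyte gate these were 73 and 105, of 303. The goblet and Paneth gate was less sharp, with 108 of 199 cells past it under its double and 295 just below it, and so were the gate on revival genes (41 of 91, and 122 below) and the stem gate (1441 of 1994, and 948 below). Chga and Chgb were among the 10 leading genes of the enteroendocrine class, and Lct, Apoa1 and Fabp1 among those of the enterocyte class. Muc2 and Lyz1 were among those of the goblet and Paneth class. These genes are markers of those gates, so their place there follows from the rule and does not check it. Genes outside the markers also led, namely Sst, Gip and Gcg in the enteroendocrine class and Leap2 and Guca2b in the enterocyte class. In the goblet and Paneth class these were Agr2 and Guca2a. Of the 10 genes that led the class gated on revival genes, 3 were of its list (Anxa1, S100a6 and Anxa3), while Crct1, Cnfn and Lor are known from cornified epithelium. It is therefore called the Anxa1-gated class, with no cell type name. The class of cells that did not cycle was led by Gm26917, Cyr61 and Nupr1 and is called by its rule only. The goblet and Paneth class had a median proliferation marker sum of 9.71 and 10.49 per 10000, above the cycling gate of 6. Its name thus stands for its gate, and many of its cells also held cycling markers. Depth differed, with a median of 14205 and 14813.5 UMIs in enteroendocrine cells, 33110.5 and 34127 in enterocytes, and 8451 and 41577 in the Anxa1-gated class.

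H2-K1 and H2-D1 stood high in enteroendocrine cells, the rare hormone-secreting cells of the gut lining, while B2m did not. H2-K1 reached 699 CPM (673 to 726) in enteroendocrine cells of suffix 1 and 921 CPM (892 to 950) in those of suffix 2. In all other cells it was 373 CPM and 498 CPM, a log2 ratio of 0.90 and 0.89. H2-D1 reached 353 CPM (334 to 372) and 397 CPM (378 to 416), against 114 and 165 CPM in other cells, a log2 ratio of 1.62 and 1.26. Heavy chain intervals of this class and of the other cells lay apart in each suffix. In the 61 and 58 enteroendocrine cells with over 10% mitochondrial UMIs, set against other cells of that range, the log2 ratio was 0.71 and 0.52 for H2-K1 and 1.51 and 0.82 for H2-D1, where the 202 and 212 cells with 10% or less had 0.98 and 1.04 and 1.67 and 1.38; the part of mitochondrial content was not tested. Cells past more than 1 gate, which were kept out of this class, held H2-K1 at 854 and 1043 CPM. The other class I heavy chains had no common direction in enteroendocrine cells: of 12 tested, 4 were past 1.5-fold higher in each suffix (H2-T23, H2-Q2, H2-M3 and Cd1d1) and 3 lower (H2-T3, H2-Q7 and Fcgrt), where 33.1% and 13% of all genes were. Their median was 0.23 and 0.13, below the 0.36 and 0.27 of all genes, and H2-Q10 stood at 94.9 against 153 CPM and at 115 against 145 CPM.

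B2m stood at 179 CPM (166 to 193) in enteroendocrine cells and 179 CPM in other cells of suffix 1. In suffix 2 it stood at 169 CPM (157 to 181) against 211 CPM, a log2 ratio of -0.32. Against cells past no gate that ratio was 0.09. Among cells with 10% or less mitochondrial UMIs the B2m ratio was 0.16 in suffix 1 and -0.008 in suffix 2. Among cells with over 10% it was -0.27 and -0.82. Its sign and size thus rest on which cells are compared. Psmb8, the immunoproteasome subunit, stood at 16.5 CPM (12.7 to 21.1) against 3.30 CPM in suffix 1 and at 11.1 CPM (8.21 to 14.8) against 2.91 CPM in suffix 2. Tap1 stood at 2.35 CPM (9 UMIs) and 6.03 CPM (26 UMIs), with intervals overlapping those of other cells.

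Of the 7 genes tested, 5 were over 1.5-fold higher in enteroendocrine cells in each suffix: H2-K1, H2-D1, Psmb8, H2-Ab1 and Cd74. For Cd74 in suffix 2 this rests on 5 UMIs, with intervals that overlapped. The background for this count is high, since 33.1% of all genes, as above, and 14.9% of those at 100 CPM or more, were that much higher in the class. The median over all genes was 0.36 and 0.27, and that over the 7 genes 1.31 and 0.89.

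Of 14 class I pathway genes, 6 were past 1.5-fold higher in enteroendocrine cells in each suffix (Tapbp, Calr, Canx, Pdia3, Hspa5 and Irf1) and 0 were that much lower. As 33.1% of all genes were higher and 13% lower, the count says little about the pathway, and the values of single genes follow. Tapbp stood at 71.6 CPM (63.4 to 80.6) against 14.9 CPM in suffix 1 and at 83.0 CPM (74.6 to 92.1) against 21.9 CPM in suffix 2. Calr, the chaperone calreticulin, stood at 1005 against 457 CPM and at 1084 against 530 CPM. Hspa5, the general chaperone of the endoplasmic reticulum, stood at 1156 against 386 CPM and at 1223 against 506 CPM. Psmb9, the other inducible proteasome subunit encoded beside Tap1, stood at 8.10 against 7.89 CPM and at 4.87 against 5.90 CPM, with overlapping intervals.

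Among signalling and costimulation genes, 3 of 13 interferon signalling genes (Jak1, Jak2 and Socs1) and 2 of 5 costimulation genes tested (Cd40 and Icosl) were past 1.5-fold higher in enteroendocrine cells, where 33.1% of all genes were. Icosl, the ligand of the T cell receptor ICOS, stood at 30.6 CPM (25.3 to 36.6) against 3.55 CPM and at 21.8 CPM (17.6 to 26.7) against 2.86 CPM. Cd40 had 9 and 7 UMIs in these cells. Of 9 interferon effector genes tested, Irf7 was higher (14.6 against 3.18 CPM and 15.5 against 5.66 CPM), whereas Bst2 and Cxcl10 were lower, as were 13% of all genes. Bst2 (tetherin) stood at 11.8 against 51.6 CPM and at 8.58 against 54.6 CPM, and Cxcl10, a chemokine, at 4.70 against 28.1 CPM and at 3.71 against 38.6 CPM.

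Enterocytes, the absorptive cells, had the highest B2m level of the 7 classes, and H2-K1 and H2-D1 were also above other cells, by less. B2m reached 480 CPM (458 to 503) in enterocytes of suffix 1 and 512 CPM (494 to 530) in those of suffix 2, against 160 and 167 CPM in other cells, a log2 ratio of 1.58 and 1.61. H2-K1 stood at 572 CPM (548 to 597) and 749 CPM (728 to 772), a log2 ratio of 0.58 and 0.57. H2-D1 stood at 212 CPM (197 to 227) and 255 CPM (243 to 268), a log2 ratio of 0.77 and 0.54. Of the 7 genes, B2m alone was past 1.5-fold in each suffix, where 9.53% of all genes and 14.6% of genes at 100 CPM or more were.

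The B2m level of enterocytes moved with the mitochondrial share of the cells. Enterocytes with 10% or less mitochondrial UMIs numbered 27 and 25 and held B2m at 222 CPM (189 to 258) and 299 CPM (264 to 338). The 93 and 149 enterocytes with over 10% held it at 545 CPM (519 to 572) and 546 CPM (526 to 567). Their marker sums also differed, with medians of 140 and 156 per 10000 in the former cells and 284 and 326 in the latter. In other cells B2m stood at 161 and 158 CPM below and above 10% in suffix 1 and at 169 and 163 CPM in suffix 2. The part of mitochondrial content in the enterocyte level was not tested. With cells of 10% or less alone, the log2 ratio of enterocytes over other cells was 0.46 and 0.82 for B2m, 0.28 and 0.20 for H2-K1 and 0.61 and 0.11 for H2-D1.

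Other class I heavy chains, relatives of H2-K1 and H2-D1, were also high in enterocytes. Of 12 such genes tested, 6 were past 1.5-fold higher in each suffix (H2-T23, H2-T3, H2-Q1, H2-Q2, H2-Q10 and Fcgrt) and 2 lower (H2-Q7 and Cd1d1), beside 9.53% and 24.1% of all genes. H2-T3, which encodes the thymus leukaemia antigen known from intestinal epithelium, stood at 58.4 CPM (50.9 to 66.8) against 14.5 CPM and at 63.8 CPM (57.6 to 70.5) against 14.1 CPM. H2-Q10 stood at 246 against 144 CPM and at 259 against 126 CPM. H2-Q2 stood at 166 against 17.5 CPM and at 212 against 22.9 CPM. H2-Q2 and H2-T23 are uncertain, since 13.1% and 38.1% of the 50-base words in the last 500 bases of their transcripts also occur in other genes. That share was 0.44% for H2-K1, 9.53% for H2-D1 and 0% for the other 8 antigen presentation genes.

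Of the 13 interferon signalling genes, 6 were past 1.5-fold higher in enterocytes and 0 lower (Ifngr2, Il10rb, Jak2, Stat2, Irf9 and Socs1 were higher), where 9.53% of all genes were higher and 24.1% lower. Jak2 stood at 20.4 against 11.8 CPM and at 24.5 against 13.6 CPM. Of the 14 class I pathway genes, Tapbp was higher (38.6 against 17.2 CPM and 42.3 against 24.98 CPM) and Pdia3 lower. Cathepsin S (Ctss), which trims Cd74 in class II cells, stood at 17.7 against 7.25 CPM and at 13.9 against 3.11 CPM, while Cd74 itself had 0 UMIs in enterocytes, which allows up to 0.816 and 0.497 CPM.

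The remaining classes completed the order. In the Anxa1-gated class H2-K1 stood at 689 CPM (619 to 765) and 678 CPM (637 to 721), H2-D1 at 271 CPM (228 to 320) and 329 CPM (300.1 to 359), and B2m at 256 CPM (214 to 303) and 236 CPM (212 to 261). H2-D1 was past 1.5-fold higher there in each suffix, as were 8.55% of all genes. Cd74, with 2 and 8 UMIs, and H2-Ab1, with 0 UMIs, which allows up to 5.86 and 2.01 CPM, were counted too rarely there to be placed above or below other cells. Cycling stem-high cells had low heavy chain levels, with H2-K1 at 339 CPM (333 to 346) and 419 CPM (410 to 428) and H2-D1 at 94.3 CPM (91.0 to 97.7) and 122 CPM (117 to 127). H2-D1 and Psmb8 were past 1.5-fold lower in them, as were 11.6% of all genes. In goblet and Paneth cells, cycling stem-low cells and cells that did not cycle, 0 of the 7 genes were past 1.5-fold in each suffix in either direction; 1.48%, 0.142% and 0.246% of all genes were higher and 6.18%, 7.87% and 7.65% lower.

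For H2-K1 the order of classes in suffix 1 was enteroendocrine, Anxa1-gated, enterocyte, not cycling, cycling stem-low, cycling stem-high and goblet and Paneth cells. The first pair overlapped, as did the last 3, cycling stem-low cells standing at 350 CPM and goblet and Paneth cells at 318 CPM (289 to 350). In suffix 2 it was enteroendocrine, enterocyte, Anxa1-gated, goblet and Paneth, not cycling, cycling stem-low and cycling stem-high, at 921, 749, 678, 472, 458, 434 and 419 CPM. The last 4 formed a chain of overlapping neighbours, except that cycling stem-high cells lay apart from goblet and Paneth cells and from cells that did not cycle. For B2m, enterocytes came before the Anxa1-gated class in each suffix with intervals apart, and the other 5 classes lay between 150 and 179 CPM in suffix 1 and between 153 and 169 CPM in suffix 2.

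**Figure D2:**
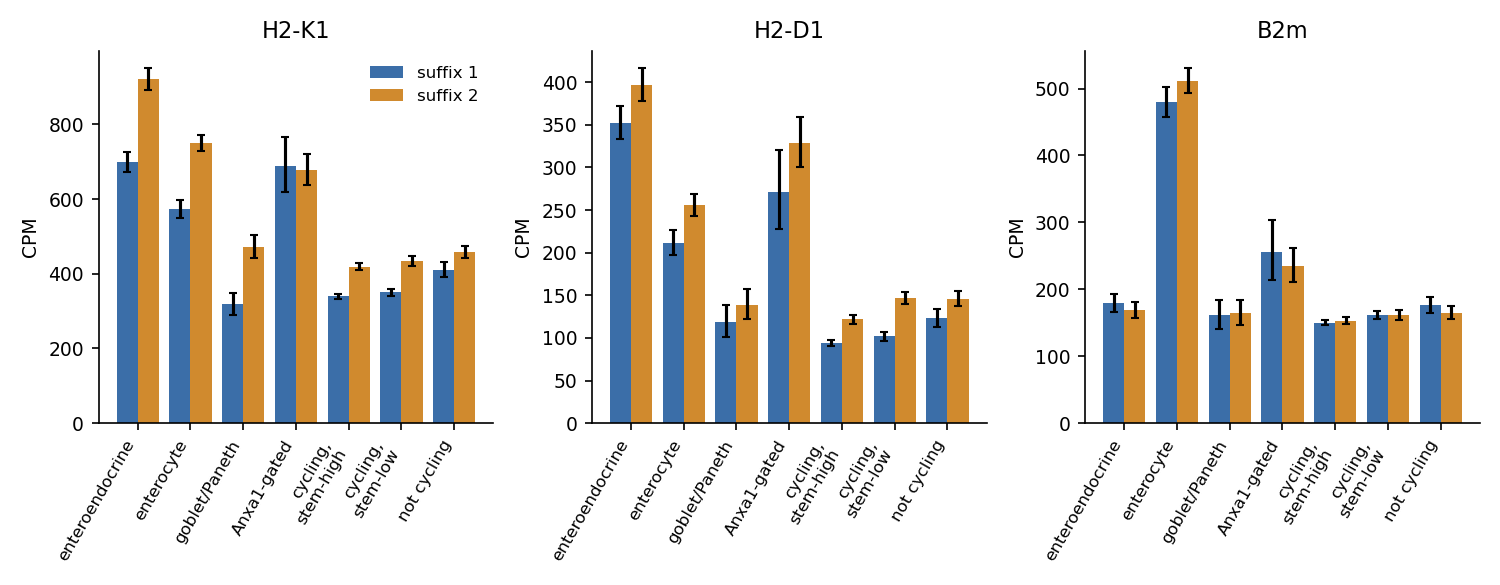
Levels of H2-K1, H2-D1 and B2m in each marker-gated cell class, in CPM, for suffix 1 (blue) and suffix 2 (orange). Bars are summed levels and error bars 95% Poisson intervals; of the 7 classes shown, H2-K1 and H2-D1 are highest in enteroendocrine cells, and B2m reaches 480 and 512 in enterocytes.

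Single cells varied widely within each class. Among cells with 5000 or more UMIs, the H2-K1 level of a cell had a median of 656 CPM in enteroendocrine cells of suffix 1 (quartiles 454 and 868) and 828 CPM in those of suffix 2 (591 and 1122). In cycling stem-high cells the medians were 323 CPM (255 and 404) and 414 CPM (322 and 510). The lower quartile of enteroendocrine cells thus lay above the upper quartile of cycling stem-high cells of the same suffix. For B2m, the quartiles of enterocytes lay farther apart than those of the other 6 classes, with a median of 373 CPM (193 and 753) in suffix 1 and 488 CPM (291 and 696) in suffix 2, where cycling stem-high cells had 148 CPM (103 and 194) and 151 CPM (102 and 193). The lower quartile of enterocytes in suffix 1 was below the upper quartile of cycling stem-high cells.

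**Figure D3:**
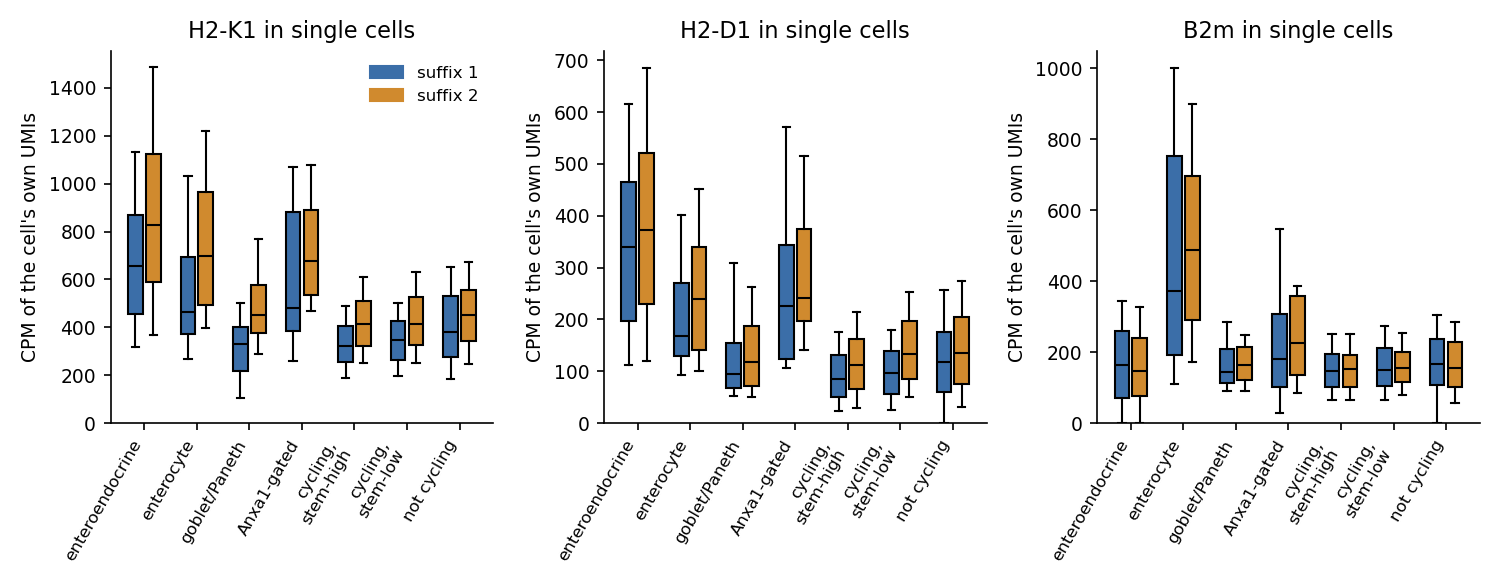
Level of H2-K1, H2-D1 and B2m in single cells of 5000 or more UMIs, in CPM of that cell's own UMIs, by class, for suffix 1 (blue) and suffix 2 (orange). Boxes span the quartiles, the line is the median and whiskers reach the 10th and 90th percentiles; enterocytes have the widest B2m box, from 193 to 753 in suffix 1.

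The share of cells with a UMI was compared at 2000 UMIs per cell, for which 265 and 77 shallower cells were left out. H2-K1 was then expected in 54.4% of cells of suffix 1 (52.3% to 56.6%) and 63.7% of suffix 2 (61.4% to 66.1%). In enteroendocrine cells the share was 72.1% and 79.1%, and in cycling stem-high cells 48.8% and 56.9%. B2m was expected in 55.6% and 61.2% of enterocytes and in 26.5% and 26.7% of cycling stem-high cells. No cell type here should lack class I, so the gauges of background were markers of other classes. Chgb was expected in 9.54% and 9.16% of cycling stem-high cells against 98.6% and 98.3% of enteroendocrine cells. Fabp1, an enterocyte gene, was expected in 13.9% and 13.5% of enteroendocrine cells and in 26.3% and 18.6% of cycling stem-high cells. In cycling stem-high cells H2-D1 was expected in 16.7% and 20.7%. The H2-D1 share of these cells in suffix 1 was thus below that of Fabp1. Their B2m share in suffix 1 and their H2-D1 share in suffix 2 were near it. These 3 shares are not read as expression. The H2-D1 level and ratio of these cells are not taken as more than what was counted. Fabp1 was also expected in 40.9% and 32.6% of cycling stem-low cells and in 44.1% and 27.9% of cells that did not cycle. The H2-D1 and B2m shares of both classes lay below these values. Fabp1 RNA made by the cells cannot be told apart from background here, so this gauge cannot decide how much of a share is background.

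The balance of heavy to light chain differed most between enteroendocrine cells and enterocytes. Per B2m UMI, H2-K1 and H2-D1 together had 5.87 UMIs (5.41 to 6.37) in enteroendocrine cells of suffix 1 and 7.82 (7.23 to 8.46) in those of suffix 2. In enterocytes there were 1.63 (1.54 to 1.73) and 1.96 (1.88 to 2.05). Over all cells the values were 2.91 and 3.46, and the other 5 classes lay between 2.72 and 4.27. The intervals of enteroendocrine cells and of enterocytes overlapped those of no other of the 7 classes in the same suffix. With cells of 10% or less mitochondrial UMIs alone, enteroendocrine cells kept 5.93 (5.41 to 6.498) and 7.95 (7.31 to 8.67), whereas enterocytes stood at 3.00 (2.51 to 3.60) and 2.63 (2.27 to 3.05), in suffix 1 within the range of the other 5 classes. The heavy chains also differed from each other, with 1.98 (1.86 to 2.12) and 2.32 (2.19 to 2.46) H2-K1 UMIs per H2-D1 UMI in enteroendocrine cells and 3.60 (3.46 to 3.75) and 3.44 (3.28 to 3.60) in cycling stem-high cells.

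**Figure D4:**
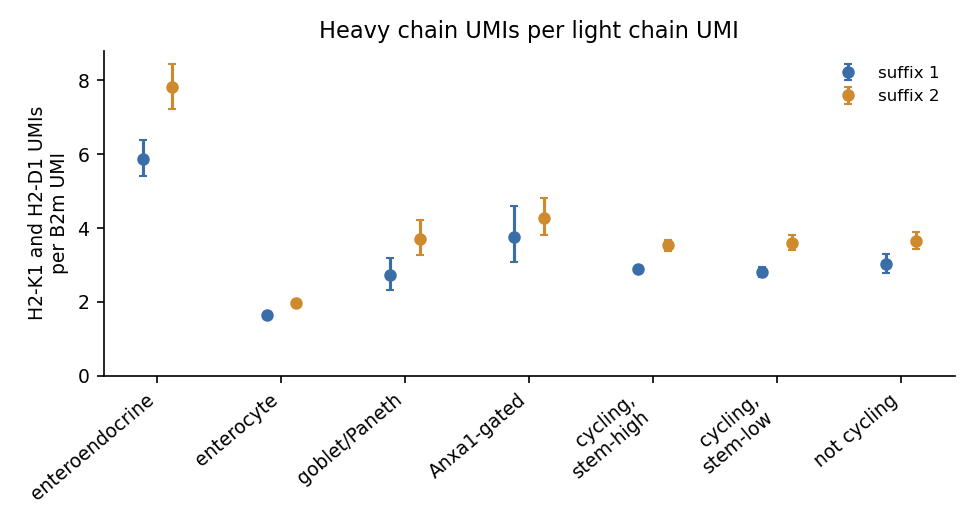
H2-K1 and H2-D1 UMIs per B2m UMI in each class, for suffix 1 (blue) and suffix 2 (orange), with 95% intervals for counting error. Enteroendocrine cells stand at 5.87 and 7.82 and enterocytes at 1.63 and 1.96, with the other classes between.

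The levels were followed along the marker sums, leaving out cells past any other gate. B2m climbed within the enterocyte range: it stood at 128 CPM (suffix 1) and 146 CPM (suffix 2) in cells with under 4 enterocyte marker UMIs per 10000, at 203 and 188 CPM from 32 to 80, at 324 and 352 CPM from 80 to 256, and at 598 and 604 CPM from 256 upwards. H2-K1 differed less over the same bins, from 325 and 438 CPM to 645 and 838 CPM. Each bin held at least 59 cells of each suffix.

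Along the enteroendocrine sum, H2-D1 stood higher in the bins past the gate than in those below it. It stood at 97.5 and 134 CPM below 1 per 10000, at 142 CPM (suffix 1, 154 cells) and 125 CPM (suffix 2, 41 cells) from 4 to 30, at 380 and 458 CPM from 30 to 128, and at 351 and 349 CPM from 512 upwards. B2m stayed between 116 and 188 CPM in all bins. H2-K1 of suffix 2 was highest just past the gate, at 1094 CPM from 30 to 128, and stood at 764 CPM from 512 upwards, where suffix 1 had 723 CPM. The bin from 4 to 30 held shallow cells, with a median of 1435 and 1997 UMIs against 14825 and 17406 in the next bin, so that few marker UMIs place a cell there.

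**Figure D5:**
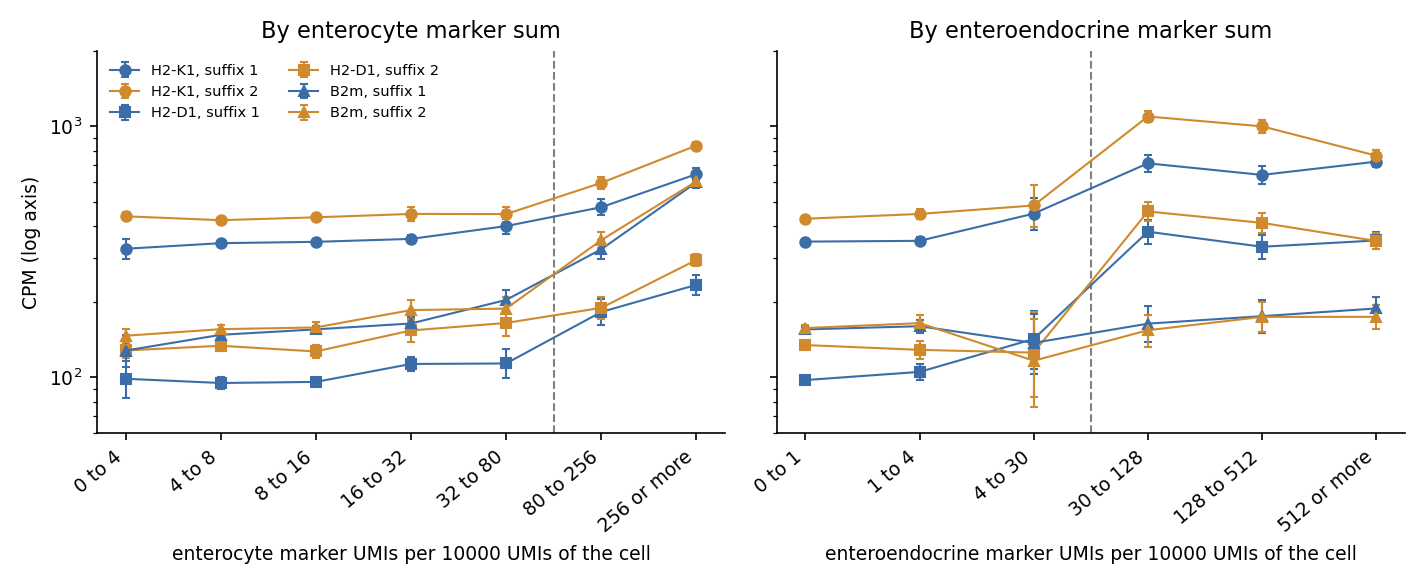
Levels of H2-K1 (circles), H2-D1 (squares) and B2m (triangles), in CPM on a log axis, in bins of enterocyte (left) and enteroendocrine (right) marker UMIs per 10000, for suffix 1 (blue) and suffix 2 (orange), with 95% Poisson intervals and the gate as a dashed line. B2m climbs to 598 and 604 on the left and lies between 116 and 188 on the right.

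Within the enteroendocrine class, subsets were drawn by rules chosen after values had been seen. Cells with the progenitor gene Neurog3 (2 or more per 10000, 24 and 10 cells) held H2-K1 at 439 CPM (364 to 525) and 474 CPM (344 to 636). Cells with Tph1, the enzyme of serotonin synthesis (5 or more, 89 and 103 cells), held it at 711 CPM (666 to 759) and 729 CPM (688 to 772). Cells with peptide hormones (50 or more over Gcg, Cck, Gip, Sst, Nts, Pyy, Sct and Ghrl, 46 and 96 cells) held it at 914 CPM (849 to 983) and 1234 CPM (1182 to 1288). H2-D1 stood at 357 and 351 CPM in the Tph1 cells and at 473 and 496 CPM in the peptide cells. The H2-K1 intervals of the suffixes overlapped in the Neurog3 and Tph1 cells and lay apart in the peptide cells, which were a larger share of the class in suffix 2.

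Setting the suffixes side by side within a class showed which of the whole-pool differences were also present inside classes. H2-K1 was higher in suffix 2 in 6 of 7 classes, each with intervals apart, by 0.16 to 0.57 on the log2 scale; in the Anxa1-gated class it was -0.02. Intervals lay apart in this direction in 6 or more classes for 0.194% of all genes tested, and for 2.25% of those at 100 CPM or more. H2-D1 was higher in suffix 2 in 7 of 7 classes (0.17 to 0.52), with intervals apart in 5. Of all genes tested 2.75%, and of those at 100 CPM or more 4.74%, were higher in suffix 2 in 7 of 7 classes, and 0.556% and 5.66% had intervals apart in 5 or more. B2m was higher in 3 of 7 classes, between -0.12 and 0.09, with intervals apart in 0, while enterocytes, its highest class, made up 5.22% of cells in suffix 1 (4.34% to 6.21%) and 9.85% in suffix 2 (8.50% to 11.3%). The part of that share in the whole-pool B2m difference was not tested. Tap1 had intervals apart in 0 classes.

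Class II UMIs lay in few cells, and these held epithelial markers. H2-Ab1, H2-Aa or Cd74 had a UMI in 66 cells of suffix 1 and 46 of suffix 2, and H2-Ab1 and Cd74 occurred together in 3 and 0 cells, where the product of their shares gives 0.405 and 0.224 cells without regard to depth. The sum of epithelial markers in those cells had a median of 40.1 and 36.2 per 10000, beside 34.6 and 40.5 over all cells, and was at least 15.0 and 10.9 in each. Ptprc, the pan-leukocyte gene, had 0 UMIs in every cell of each suffix. Of the 8 immune markers, 6 and 5 had any UMI, summing to 2.16 and 1.41 CPM, with class sums from 0 to 9.15 CPM and from 0.669 to 5.10 CPM; 4 of the 66 and 3 of the 46 cells had one, beside 123 of all 2300 and 71 of all 1766 cells. Of the 6 markers of antigen presenting immune cells, Itgax, Flt3, Adgre1 and Ms4a1 were at 0 in each suffix, and 0 of the 66 and 1 of the 46 cells had a UMI of the list.

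H2-Ab1 stood higher in enteroendocrine cells than in other cells, with intervals apart. They held 22 of its 57 UMIs in suffix 1 (5.75 CPM, 3.60 to 8.70, against 0.606 CPM in other cells) and 9 of 34 in suffix 2 (2.09 CPM, 0.954 to 3.96, against 0.534 CPM). Cells past more than 1 gate held 10 and 3 H2-Ab1 UMIs (10.2 and 2.38 CPM), and cycling stem-high cells 10 and 9. At 2000 UMIs per cell its expected share was 1.39% and 0.303% of enteroendocrine cells, too near a level of 1 UMI to be ordered. Cd74 had 8 UMIs in enteroendocrine cells of suffix 1 and 5 in those of suffix 2. The Anxa1-gated class of suffix 2 had 8 Cd74 UMIs, of which 7 came from 1 cell of 53143 UMIs that also held 49 Epcam, 111 Ly6a and 90 Anxa1 UMIs and 0 Ptprc UMIs. H2-Eb1, another class II chain, had 11 UMIs in each suffix. H2-DMa, from the context list for the class II pathway, had 272 and 240 UMIs (4.41 and 4.70 CPM). Rfx5, Rfxap, Creb1 and the NF-Y genes, whose products bind these promoters, were counted, Rfxap at 35.2 and 35.1 CPM.

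The genes whose levels ran most like those of the chains were sought over 12 points, each a class of 50 or more cells in 1 suffix, among 7354 genes at 10 CPM or more. The points share pools and depth, and the coefficients only describe them. For H2-K1 the closest were Man2b1 (Pearson's r 0.98), Tmem41b, Mafk, Nufip2 and Tmem106b, and for H2-D1 Arl5b (0.99), Atp6v0d1, Atp6v0b, Glmp and Plscr1. For B2m they were Gramd3 (0.99), G6pc, Apoa1, Slc31a1 and Npl, of which Apoa1 is in the enterocyte gate. H2-K1 ran with H2-D1 at 0.96 and with B2m at 0.48.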

How the data were processed

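Droplet 3' libraries (10x Genomics, v3 chemistry, Illumina sequencing) were made from the pooled cells, per the labels' protocols. The submitters' processing notes name Cell Ranger 3.1.0, bcl2fastq 2.20.0 and STAR 2.7.3a; the genome build and annotation are not given in the sources used here. The deposited values are UMI counts per gene and barcode, whole numbers with no normalization, per the file headers and the values.

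UMIs were summed over kept cells and scaled to CPM with python 3.11.15, numpy 2.4.6, scipy 1.17.1 and pandas 2.3.3. Intervals are exact Poisson (levels), Clopper-Pearson (shares) and conditional exact binomial (ratios), at 95%; 3 counts set the limit for a count of 0. UMIs that come from free RNA cannot be told apart from those of the cell. Log2 ratios used CPM plus 1, which understates low genes. Their intervals were computed without the added 1, so for low genes the 2 do not match exactly. Shares at 2000 UMIs are hypergeometric expectations. No doublet caller was run; cells past several gates were set apart. "Tested" genes had at least 10 UMIs in all. Ratio intervals and thinning were tested on simulated data.

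The genes, the context lists and the gate levels were chosen with earlier results of these data known. All 10 genes are named; of the context lists, up to 6 genes per comparison past 1.5-fold with intervals apart, by CPM, with others added after their values were seen; for likeness, the 5 highest r. Promoters come from RefSeq (GRCm38.p6), 3' end words from GENCODE vM21 transcripts.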

Additional observations from a re-analysis of the deposited data

Results flagged for a closer look

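Barcodes with over 20% mitochondrial UMIs, 6110 of suffix 1 and 3671 of suffix 2 that passed the limits on genes and UMIs, were used in no comparison above, and the class I chains were counted in them well above the limit of a count of 0. Per 1000000 UMIs of genes outside the mitochondrial genome, H2-K1 stood at 749 in suffix 1 and 1045 in suffix 2, where kept cells had 436 and 591. H2-D1 stood at 185 and 224, where kept cells had 143 and 204. B2m stood at 212 and 262, where kept cells had 199 and 230. H2-Ab1 had 25 and 7 UMIs in these barcodes and Cd74 had 7 and 2.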

How the results depend on the processing

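No paired analysis was possible because each barcode suffix is 1 pool, with no replicate numbers and no tie between suffix and treatment; leaving out replicates was not possible for the same reason. Of 132 alternative values of the main results, 86 stayed within the counting interval, 46 moved beyond it and 0 changed sign. With a mitochondrial limit of 10%, the log2 ratio of suffix 2 over suffix 1 was 0.40 for H2-K1 and 0.083 for B2m. Without a limit these were 0.52 and 0.31. Averaging each cell's own CPM gave 0.40 for H2-K1, 0.44 for H2-D1 and 0.15 for B2m, and leaving out the top 5% of barcodes by UMIs gave 0.46 for H2-D1. For enteroendocrine over other cells (suffix 1, suffix 2), H2-K1 was 0.98 and 1.04 at the 10% limit, 0.79 and 0.81 with the gate halved, 0.98 and 0.97 with cells past several gates kept, 1.003 and 1.09 against cells past no gate, and 0.82 in suffix 2 without a mitochondrial limit. H2-D1 was 1.38 (10% limit) and 1.35 (no limit) in suffix 2, 1.53 (gate halved) and 1.72 (several gates kept) in suffix 1, and 1.82 and 1.56 against cells past no gate. For enterocytes over other cells, B2m was 0.46 and 0.82 at the 10% limit, 1.84 and 1.90 without a limit, 1.80 and 1.72 with the gate doubled, and 1.38 and 1.45 with it halved. In suffix 2 it was 1.71 without the top 5% of barcodes and 1.69 against cells past no gate, and in suffix 1 it was 1.72 with Fabp1 left out of the gate. H2-K1 and H2-D1 UMIs per B2m UMI in enterocytes were 3.00 and 2.63 at the 10% limit, 1.745 and 2.09 without a limit, and in suffix 1 1.52 with the gate doubled and 1.741 with it halved. The H2-K1 share of cells at 2000 UMIs was 45.5% and 59.9% without a mitochondrial limit, 83.9% and 89.97% at 5000 UMIs, and 91.9% and 96.1% unthinned. The comparison with cells past no gate, the gates without Chgb or Fabp1 and the alternatives for UMIs per B2m UMI were added after the data were seen.

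Of 238 values of single genes, 3 changed sign, all for B2m in suffix 2: enteroendocrine cells against cells past no gate (0.094), and the Anxa1-gated class with the gate halved (-0.12) or without the 3 cells with most B2m UMIs (-0.027). The B2m level of the Anxa1-gated class thus rests on few cells. The cause of these shifts was not tested. Depth limits the class II genes, Nlrc5 and Tap1 within a class, where few UMIs were counted.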
